A study of Homo sapiens with 4 samples.

Results

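Oxygen supply was compared in the exosome fraction of a myeloma culture: medium of RPMI8226, an established human multiple myeloma line with plasma cell features, after 24 h at 1% oxygen (hypoxia) or 20% oxygen (normoxia). The comparison uses 2 of the 4 samples of the series, 1 per oxygen level, and the other 2 are the cells of the same conditions. On each sample's card, 377 wells each held an assay of a human miRNA, and all 377 were taken. The log2 change of a miRNA is its log2 level in hypoxia minus that in normoxia, from the threshold cycle (Ct) of its well after subtracting the Ct of a plant miRNA, ath-miR159a, added at lysis. A Ct is the PCR cycle at which the signal crosses a threshold, so a lower Ct is more template, and 35 is the highest value in the data and was read as not detected. Per the labels' protocols the cells grew in AIM-V medium, the fraction was precipitated from cleared and filtered medium with a polymer reagent, and the products of the exosome samples were pre-amplified. Such a precipitate can hold miRNA outside vesicles too, and a smaller number of vesicles and less miRNA per vesicle cannot be told apart. Each oxygen level is 1 sample and 1 card, so card and oxygen cannot be told apart, no value has an error between samples, and no test was made.

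miRNAs are short RNAs that guide Argonaute proteins to messenger RNAs, mostly through the seed, bases 2 to 8 from the 5′ end. Each is cut from a hairpin with a 5p and a 3p arm, of which usually 1 is the more abundant. Some leave the cell in exosomes, small vesicles of endosomal origin, and can be taken up by other cells. In myeloma, vesicles from hypoxic plasma cells have been studied as signals to the endothelium of the bone marrow.

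Among the 203 miRNAs with a Ct under 35 in both exosome samples, the abundant ones lay within 2-fold between the oxygen levels, and the differences past 2-fold lay among scarce ones. A further 34 were seen in 1 sample only, and 3 of these had a Ct under 30 where seen: miR-520e at Ct 18.98, miR-139-3p at 27.94 and miR-215 at 28.07, all in hypoxia and all at 35 in normoxia. In hypoxia 8 of the 203 were past 2-fold higher, 7 were past 2-fold lower, and 188 lay between. This puts 7.39% past 2-fold, 3.94% higher and 3.45% lower, which is the background for each group below. All 15 had a mean Ct of 30 or more, so the share was 15 of 43 there and 0 of 160 under 30. For a group of abundant miRNAs the background is thus 0 of 160. The 15, with 10 miRNAs seen with a Ct under 32 in only 1 sample, are described in detail, and the mature sequences RefSeq (GRCh38.p14) holds for them are given here with the seed in capitals. RefSeq sequences could be matched to 329 of the 377 assays, 122 by the same name and 207 through an arm assigned to the older assay name. The 5p arm was assigned to miR-143, for example. An assay assigned the wrong arm would carry the wrong sequence here.

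The miRNAs at least 2-fold higher in hypoxia for which a sequence was matched were the following.
miR-448: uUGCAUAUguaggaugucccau
miR-202: aGAGGUAUagggcaugggaa
miR-224: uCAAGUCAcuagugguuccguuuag
miR-338-3p: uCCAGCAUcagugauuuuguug
miR-33b: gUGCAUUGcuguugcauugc
miR-323-3p: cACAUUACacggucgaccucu
miR-1: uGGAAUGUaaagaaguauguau

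Those at least 2-fold lower in hypoxia were these.
miR-516b: aUCUGGAGguaagaagcacuuu
miR-489: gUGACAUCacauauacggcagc
miR-548b-5p: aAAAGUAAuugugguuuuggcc
miR-511: gUGUCUUUugcucugcaguca
miR-542-5p: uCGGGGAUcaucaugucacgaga

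Those with a Ct under 32 in hypoxia and 35 in normoxia were these.
miR-520e: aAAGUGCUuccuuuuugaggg
miR-139-3p: uGGAGACGcggcccuguuggagu
miR-215: aUGACCUAugaauugacagac
miR-129-5p: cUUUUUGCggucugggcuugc
miR-187: uCGUGUCUuguguugcagccgg
miR-655: aUAAUACAugguuaaccucuuu

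Those with a Ct under 32 in normoxia and 35 in hypoxia were these.
miR-509-5p: uACUGCAGacaguggcaauca
miR-146b-3p: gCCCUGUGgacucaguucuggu
miR-296-3p: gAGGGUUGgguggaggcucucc
miR-133b: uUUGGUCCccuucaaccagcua

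The seeds of these 22 differ from each other, but miR-520e, miR-215, miR-133b and miR-509-5p share theirs with other assays on the card. Among the higher miRNAs, miR-33b lies at chr17:17813897-17813916 (minus strand) within SREBF1, the gene of a regulator of lipid synthesis, and miR-338-3p at chr17:81125887-81125908 (minus strand) within AATK, a kinase gene. miR-224 lies at chrX:151958628-151958652 (minus strand) within GABRE and miR-448 at chrX:114823524-114823545 (plus strand) within HTR2C, which encode a GABA and a serotonin receptor. Among the lower ones, miR-489 lies at chr7:93483947-93483968 (minus strand) within CALCR, the calcitonin receptor gene, and miR-511 at chr10:17845122-17845142 (plus strand) within MRC1, the macrophage mannose receptor gene. Whether these places are exonic or intronic was not analysed here. Detection of these miRNAs in the cells is given with the results below.

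**Figure D1:**
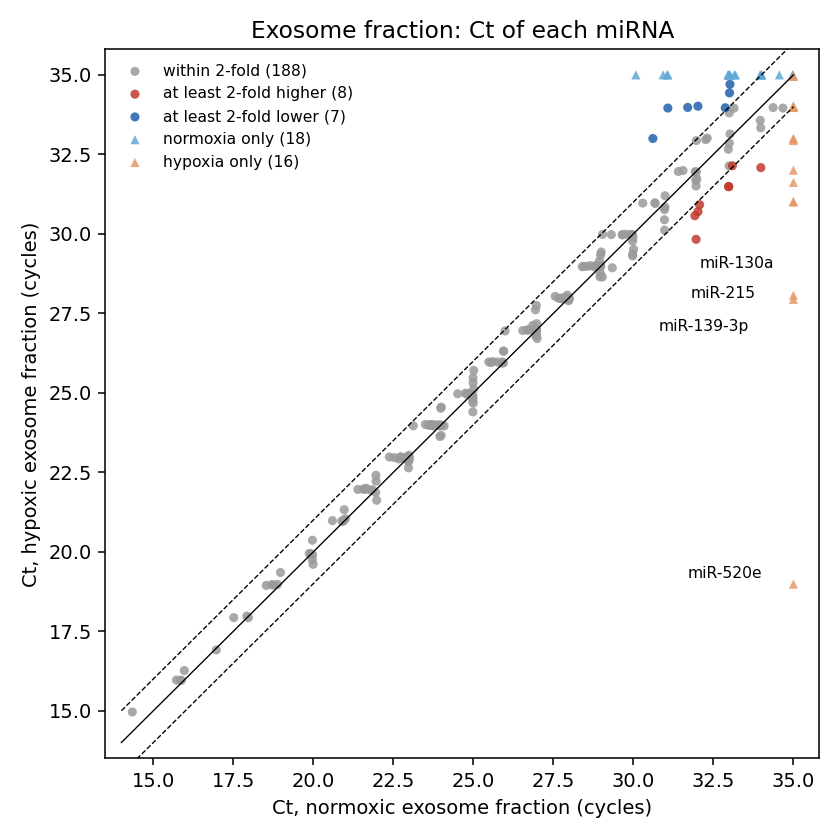
Ct of each miRNA in the normoxic exosome fraction (x axis, cycles) and the hypoxic one (y axis, cycles), with 203 miRNAs detected in both as circles and those detected in 1 sample as triangles at 35. Solid and dashed lines mark equal Ct and a difference of 1 cycle. Most circles lie between the dashed lines, and those outside lie above Ct 29.

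The abundant end of the fraction held the oncogenic miR-17 relatives and differed little. The lowest Ct was that of miR-19b, 14.34 in normoxia and 14.96 in hypoxia, or 1.48-fold lower in hypoxia. miR-20a stood at 15.72 and 15.96, miR-17 at 15.83 and 15.96, miR-106a at 15.88 and 15.96 and miR-24 at 15.97 and 16.26. miR-16, a repressor of BCL2 and cyclins, stood at 16.97 and 16.91. Over the 20 miRNAs of lowest mean Ct (up to 20.17) the log2 changes ran from -0.57 for miR-19b to 0.44 for miR-19a, with a median of -0.06, and 14 were below 0 and 6 above. These signs depend on the normalizer. With a median Ct per sample in its place, miR-20a, miR-17, miR-106a, miR-484, miR-146a, miR-193b and miR-30c moved above 0. With no normalizer miR-29a moved below 0, to -0.03. None of the 20 was past 2-fold, and all 20 were detected in both cell samples.

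Of these, miR-222, a repressor of the cell-cycle inhibitor CDKN1B, had Ct 17.51 in normoxia and 17.93 in hypoxia (log2 change -0.37). miR-92a had 17.97 and 17.93 (0.10), miR-484 17.92 and 17.98 (-0.01), and miR-148a 18.53 and 18.94 (-0.36). The rest of the 20 were miR-93, miR-146a, miR-193b, miR-191, miR-19a, miR-21, miR-30c, miR-29a, miR-320 and miR-106b, with log2 changes between -0.34 and 0.44. miR-19a and miR-19b, which share a seed and differ in few bases, stood on opposite sides of 0. Levels of different miRNAs are compared here by Ct alone, and assays can differ in efficiency.

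The spread of the log2 changes widened with Ct. Its SD across miRNAs was 0.24 for the 19 with a mean Ct from 14 to under 20, 0.25 for 54 from 20 to under 24, 0.29 for 56 from 24 to under 28 and 0.38 for 31 from 28 to under 30. It was 0.95 for 20 from 30 to under 32 and 1.28 for 23 from 32 to under 35. No miRNA was past 2-fold among the 160 with a mean Ct under 30, against 5 of the 20 and 10 of the 23 in the scarcest ranges. This SD is across miRNAs, not across replicates. The only repeat wells, 4 of U6 per card, had an SD of 0.15 and 0.12 cycles in the cell samples, at Ct near 19, and stood at 35 in both exosome samples.

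**Figure D2:**
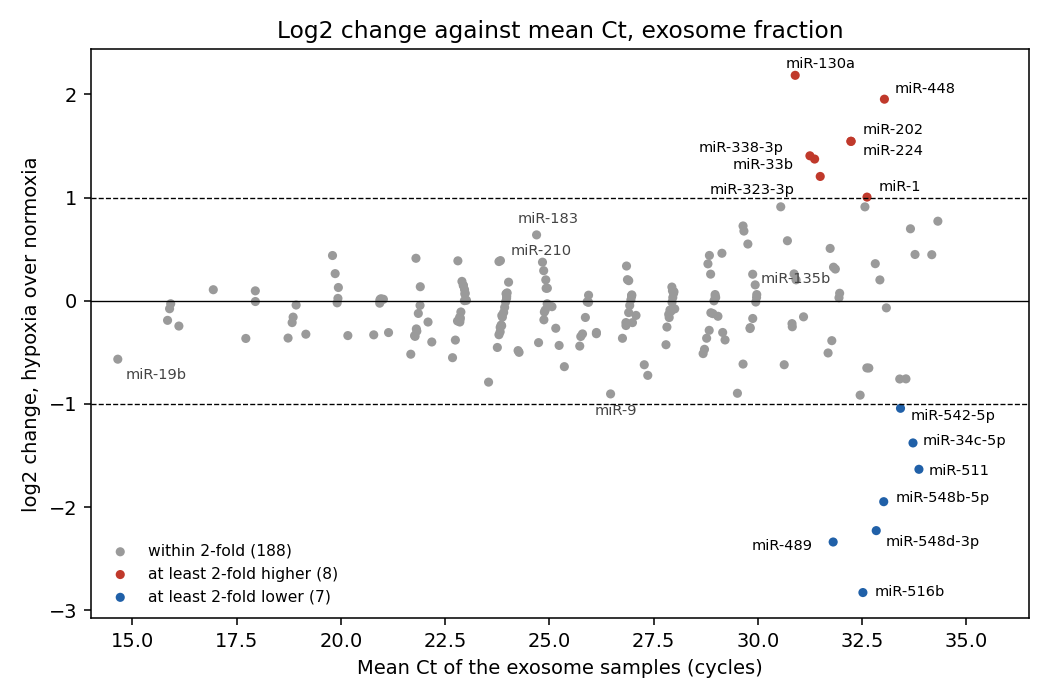
Log2 change of hypoxia over normoxia in the exosome fraction (y axis) against the mean Ct of the 2 samples (x axis, cycles) for the 203 miRNAs detected in both. Dashed lines mark 2-fold, and every point past them lies at a mean Ct of 30 or more.

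The Ct values themselves were unevenly spaced. Of the 221 detected miRNAs of the normoxic exosome fraction, 135 (61.1%) had a Ct within 0.1 of a whole cycle, and so had 147 of 219 (67.1%) in the hypoxic one, where evenly spread values would give 20%. Most sat just below the whole cycle, 114 in normoxia and 130 in hypoxia. Both cell samples had the pattern, with 53.7% and 71.6%. For 50 of the 203 miRNAs both exosome wells were within 0.1 of a whole cycle, and 43 of these 50 had the same rounded Ct in both samples. How each well's threshold was set is not stated in the labels, and the part of this pattern in the log2 changes was not tested. Differences of less than about 1 cycle therefore rest on values with uneven steps. Larger differences also held the pattern. Both wells were within 0.1 of a whole cycle for 4 of the 15 miRNAs past 2-fold. The detected well was so for 30 of the 34 seen in 1 sample.

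**Figure D3:**
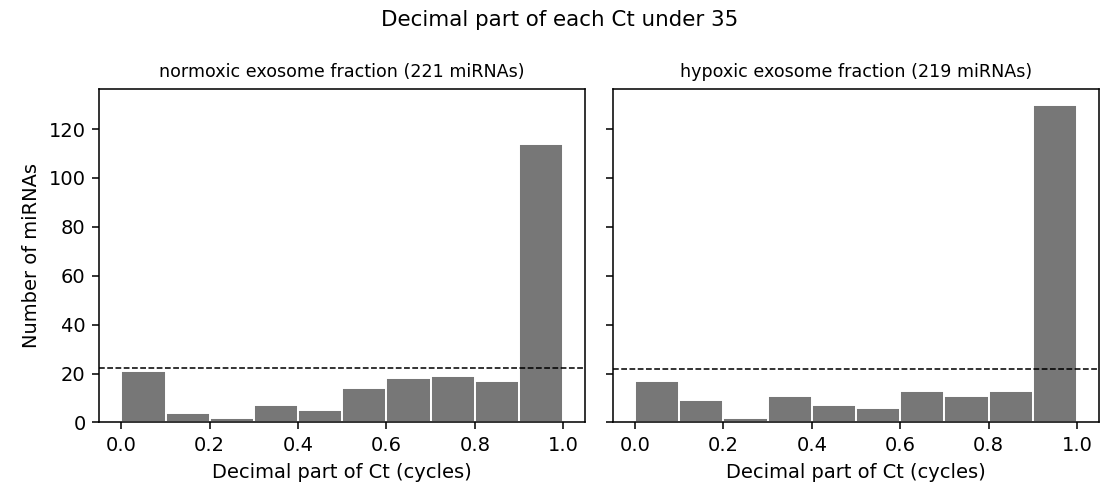
Number of detected miRNAs (y axis) by the decimal part of their Ct (x axis, cycles) in each exosome sample, with a dashed line at the height of an even spread. The last interval, 0.9 to 1, holds 114 miRNAs in normoxia and 130 in hypoxia.

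Among the higher miRNAs, miR-130a stood first. It represses homeobox genes that restrain vessel growth. Its Ct was 31.96 in normoxia and 29.83 in hypoxia (log2 change 2.18), while it stood at 35 in both cell samples. Its namesake miR-130b had 22.99 and 22.97 (0.07), so the more abundant of the pair had nearly equal Ct in both samples.

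The next were miRNAs known from tissues other than plasma cells. miR-448, from a gene active in brain, had Ct 33.98 in normoxia and 32.08 in hypoxia (log2 change 1.95). miR-202, best known from gonads, had 32.97 and 31.48, and miR-224, from the GABRE gene, 32.98 and 31.49, each with a log2 change of 1.54. These 2 assays thus matched within 0.01 cycle in both samples.

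miR-338-3p, from a gene of the nervous system, had Ct 31.92 and 30.57 (1.40). miR-33b, which limits cholesterol export through ABCA1, had 32.02 and 30.70 (1.37). miR-323-3p, of the imprinted DLK1-DIO3 cluster, had 32.07 and 30.92 (1.20). miR-1, the muscle miRNA, lay just inside the threshold with 33.09 and 32.14 (1.00), a 2.01-fold difference. Of the 8, only miR-323-3p was detected in cells, at Ct 34.27 in normoxia and 34.99 in hypoxia.

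Among the lower miRNAs, miR-516b of the placental cluster C19MC differed most. Its Ct was 31.08 in normoxia and 33.96 in hypoxia (log2 change -2.83). miR-489, known from quiescent muscle stem cells, had 30.61 and 33.00 (-2.34). miR-548d-3p and miR-548b-5p, of a primate family that arose from a transposon, had 31.70 and 33.98 (-2.23) and 32.02 and 34.02 (-1.95). In hypoxia their Ct ran from 33.00 to 34.02, close to the ceiling.

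miR-511, from the gene of a macrophage receptor, had Ct 33.02 and 34.70 (-1.63). miR-34c-5p, a p53 target, had 33.00 and 34.43 (-1.38), and miR-542-5p, from an X-linked cluster with miR-424, had 32.87 and 33.97 (-1.04). Of the 7, only miR-489 was detected in cells, in hypoxia alone at Ct 34.97. Just outside the threshold lay miR-190, 1.89-fold lower (Ct 31.97 and 32.93), and miR-141, 1.88-fold higher (30.98 and 30.12). miR-542-5p was the nearest lower miRNA inside it, at 2.06-fold.

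**Figure D4:**
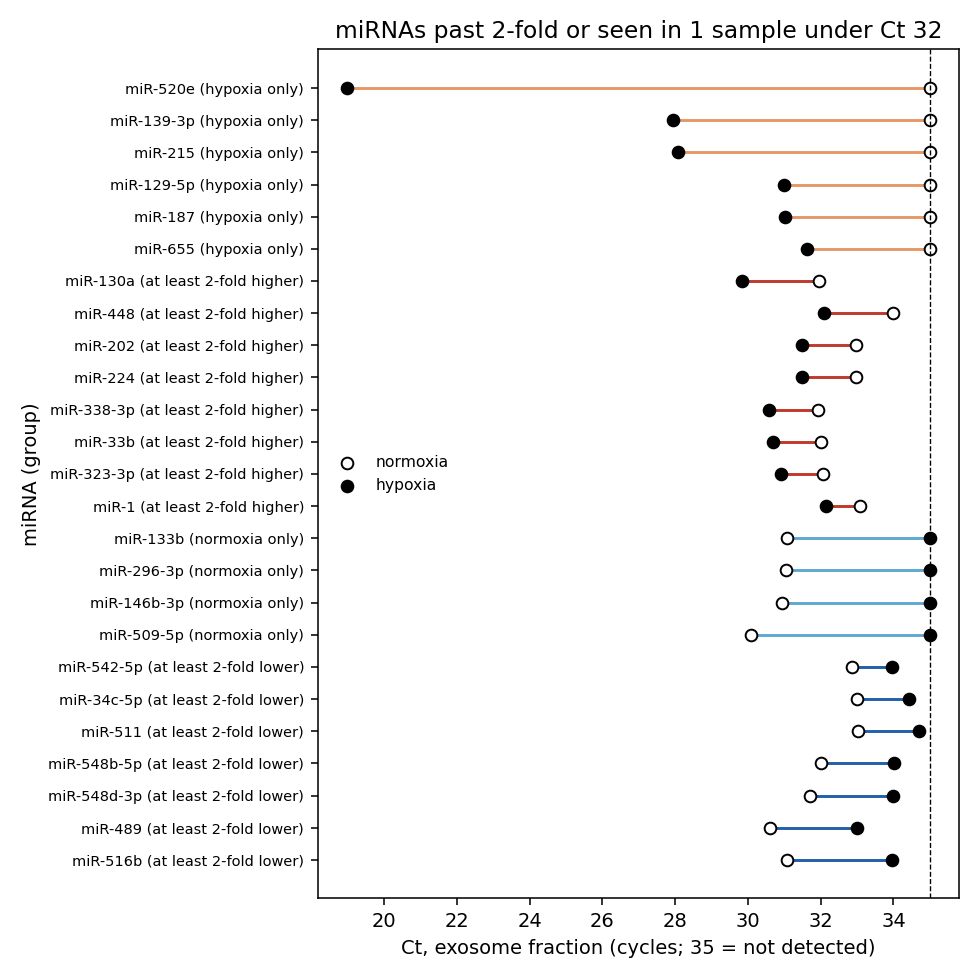
Ct in the exosome fraction (x axis, cycles, where 35 is not detected) in normoxia (open) and hypoxia (filled) for the 15 miRNAs past 2-fold and the 10 with a Ct under 32 in 1 sample and 35 in the other. Apart from miR-520e, miR-139-3p and miR-215 in hypoxia, the detected values lie above Ct 29.

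Of the 34 miRNAs detected in 1 exosome sample, 18 were seen in normoxia and 16 in hypoxia, and 24 had a Ct of 32 or more where seen. A well at 35 gives only a bound: against Ct 35, 11 of the 18 were at least 2-fold lower in hypoxia and 14 of the 16 at least 2-fold higher. The rest sat too near the ceiling, such as miR-518e at 34.99 in normoxia. miR-520e, of the C19MC cluster, stood apart with a Ct of 18.98 in hypoxia, within the range of the most abundant miRNAs, and 35 in normoxia, a bound of 16.07 on the log2 scale. It was detected in both cell samples, at 25.81 in normoxia and 27.01 in hypoxia. This miRNA therefore rests on 1 well per sample that read near the top and at the bottom of the card's range. In hypoxia only, miR-129-5p had Ct 31.00, miR-187 31.02 and miR-655 31.62, and in normoxia only miR-509-5p had 30.08. All of these stood at 35 in both cell samples.

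Relatives that share a seed with these miRNAs were set beside them. miR-520b, which has the same seed as miR-520e and differs from it by 1 base, stood at 35 in both exosome samples. Of all 7 other assays with that seed, miR-520b included, only miR-373 was detected in both, at 21.57 in normoxia and 21.96 in hypoxia. miR-302c and miR-372 were, like miR-520e, seen in hypoxia only, but at Ct 34.95 and 34.96, next to the ceiling, and the rest were at 35 in both. miR-215, a p53-responsive miRNA seen in cells in hypoxia only (Ct 33.98), was at 35 in normoxia and 28.07 in hypoxia in the exosome fraction. miR-192, with the same seed and 2 different bases, had 26.88 and 26.97.

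miR-133b, a muscle miRNA at 35 in both cell samples, had Ct 31.08 in normoxia and 35 in hypoxia. miR-133a, with 1 different base, had 27.94 and 28.07. The sequences show how alike the members of these pairs are.
miR-215: aUGACCUAugaauugacagac
miR-192: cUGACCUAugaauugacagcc
miR-133b: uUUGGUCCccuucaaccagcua
miR-133a: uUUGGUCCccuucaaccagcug
In both of these pairs the relative detected in both samples had the lower Ct in both and nearly the same Ct in normoxia and hypoxia, and the other was at the ceiling in 1 of them.

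Opposite arms of a hairpin are made from the same transcript, and the card held 29 pairs with at least 1 arm detected in the exosome fraction. In 12 pairs both arms were detected in both samples. Their log2 changes differed by a median of 0.31 and at most by 0.64 (miR-339-5p 0.20, miR-339-3p -0.44), and 8 of the 12 pairs had the same sign. miR-140-5p and miR-140-3p were closest, at -0.16 and -0.14. miR-331-5p (-0.90) and miR-331-3p (-0.26) were both lower in hypoxia.

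In 7 pairs an arm was seen in only 1 sample. In 3 of the 7 the partner was abundant and had a similar Ct in both samples. miR-139-3p was at 35 in normoxia and 27.94 in hypoxia, against 24.98 and 24.74 for miR-139-5p, an endothelial miRNA. miR-146b-3p was at 30.93 and 35, against 22.99 and 22.94 for miR-146b-5p, which restrains inflammatory signalling. miR-296-3p was at 31.05 and 35, against 23.71 and 24.00 for miR-296-5p, known to act on growth factor receptors in endothelium. In these 3 hairpins the arm that differed between the samples was the scarcer arm. None of the 3 was detected in cells. In the other pairs, all seen in normoxia only, the partners were scarce or not detected. miR-125a-3p was at 33.00, beside miR-125a-5p at 31.98 and 31.73, and miR-876-3p at 34.005, beside miR-876-5p at 33.02 and 33.14. miR-515-5p at 32.95 and miR-654-3p at 33.96 had partners at 35 in both samples.

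Families with a common seed tend to share targets. Families were formed only from assays with a matched RefSeq sequence, which leaves out 3 of the 15 miRNAs past 2-fold, miR-130a, miR-34c-5p and miR-548d-3p. There were 9 such families with at least 3 measured members, 35 miRNAs in all, and none of these 35 was past 2-fold, beside 7.39% of all measured. All but miR-449a and miR-519d had a mean Ct under 30, where 0 of all 160 miRNAs was past 2-fold. This count therefore does not set the families apart. By their names, miR-130a (2.18) and miR-34c-5p (-1.38) are relatives of miR-130b and of miR-34a, so 2 of the 9 families have an unmatched relative past 2-fold. Also by name, miR-548c-5p (0.325) and miR-548d-5p (0.20) are relatives of miR-548b-5p (-1.95). Both were measured but unmatched, so no family was formed from them. Family medians of the log2 change ran from -0.36 to 0.15, beside -0.07 over all 203. The lowest were miR-148a, miR-148b and miR-152 (-0.36, -0.41 and -0.05), and let-7, a family that restrains growth genes, with let-7e at -0.55, let-7g at -0.45, let-7b at -0.29, let-7d at -0.01 and let-7c at -0.01.

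The matched members of the miR-130b, miR-301 and miR-454 family, beside the unmatched miR-130a at 2.18, had miR-301b at -0.72, miR-454 at -0.32, miR-301a at 0.00 and miR-130b at 0.07. In the miR-17 seed family, 6 abundant members lay between -0.34 (miR-106b) and 0.01 (miR-20b), and the scarce miR-519d of C19MC, at Ct 32.99 and 32.14, had 0.91. The miR-29 family, which represses collagens and MCL1, had miR-29a at 0.02, miR-29b at 0.12 and miR-29c at 0.39. In the miR-15/16 family miR-15b stood at 0.41 and miR-424 at -0.27. The sequences of the miR-17 and miR-130b families show the seed that each shares.
miR-17: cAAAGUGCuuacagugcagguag
miR-20a: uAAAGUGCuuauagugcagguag
miR-106a: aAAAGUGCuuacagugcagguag
miR-93: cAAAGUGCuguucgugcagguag
miR-106b: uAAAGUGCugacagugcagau
miR-20b: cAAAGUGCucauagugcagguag
miR-130b: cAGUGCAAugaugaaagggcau
miR-301a: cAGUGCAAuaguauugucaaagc
miR-301b: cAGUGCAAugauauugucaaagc
miR-454: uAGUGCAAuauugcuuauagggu

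**Figure D5:**
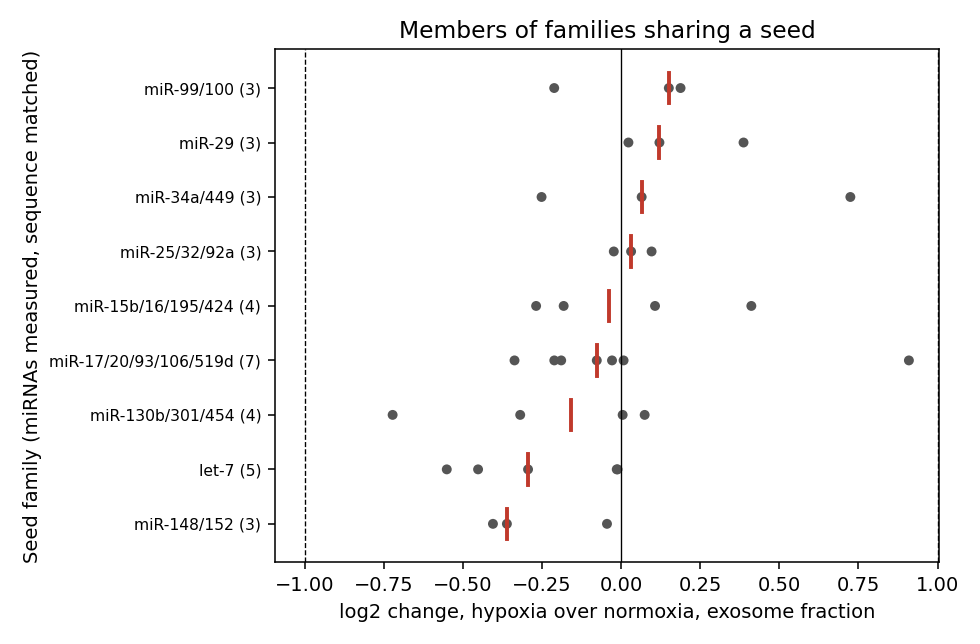
Log2 change of hypoxia over normoxia in the exosome fraction (x axis) for each measured member with a matched sequence (points) of the 9 seed families with at least 3 such miRNAs, with the family median as a red line. All 35 points lie between the dashed 2-fold lines, with miR-519d at 0.91 the highest, and the unmatched relatives miR-130a (2.18) and miR-34c-5p (-1.38), which lie outside them, are not drawn.

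Of the list of miRNAs tied to hypoxia-inducible factor, 15 of 18 assays were measured and 0 were past 2-fold (median -0.10). miR-210, the factor's best known miRNA target, had Ct 23.99 in normoxia and 23.66 in hypoxia, a log2 change of 0.39 that was the highest of the list. In cells its log2 change was 3.55. miR-135b, a repressor of factor-inhibiting HIF, had 29.98 and 29.97 (0.06), and its relative miR-135a 27.84 and 27.99 (-0.10). miR-31, which also targets factor-inhibiting HIF, had 24.80 and 24.96 (-0.11), and miR-155, a repressor of HIF1A, 27.98 and 27.90 (0.13). miR-26a was lowest, with 21.39 and 21.96 (-0.52), next to miR-26b with 23.98 and 24.52 (-0.48). Both were thus lower in hypoxia in the exosome fraction, while their cellular log2 changes were 0.23 and 0.21.

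Of the miRNAs that act on vessels, 17 of 19 were measured, miR-130a was past 2-fold higher and 0 were lower (median -0.08). miR-126, the main endothelial miRNA, had Ct 21.65 in normoxia and 21.97 in hypoxia (-0.27). miR-10a had 29.03 and 28.64 (0.44), and miR-132, miR-23a, miR-27a and miR-27b lay between -0.06 and 0.14. All 17 assays of miRNAs described as oncogenic in myeloma were measured, 0 past 2-fold (median -0.14), from miR-181a at -0.79 to miR-19a at 0.44. miR-181a, a lymphoid miRNA, had Ct 23.12 and 23.96.

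Of the miRNAs described as suppressive in myeloma, 19 of 23 were measured, 2 were higher, miR-33b and miR-202, and 0 lower (median 0.03). miR-215 was seen in hypoxia only. miR-34a, a p53 target, had Ct 22.98 and 22.97 (0.06), miR-197 23.64 and 24.00 (-0.30), and miR-125b 21.58 and 21.98 (-0.35). Of miRNAs often reported in vesicles, 11 of 15 were measured and 0 past 2-fold (median -0.29), from let-7e at -0.55 to miR-21 at 0.26. miR-223, a myeloid miRNA, had 25.55 and 25.95 (-0.35).

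Among the 160 miRNAs with a mean Ct under 30, 10 were past 1.5-fold, 7 lower and 3 higher in hypoxia. The lower ones were miR-9 (Ct 25.99 in normoxia and 26.94 in hypoxia), miR-331-5p (29.03 and 29.98), miR-181a, miR-301b (26.97 and 27.75), miR-532-3p (25.01 and 25.70), miR-628-5p (26.94 and 27.61) and miR-519a (29.31 and 29.98). The higher ones were miR-449b (29.98 and 29.31), miR-219-1-3p (29.97 and 29.35) and miR-183 (24.98 and 24.40). For miR-9 and miR-331-5p the difference is a step between wells near whole cycles. miR-9, a brain miRNA also seen in B cells, had a cellular log2 change of 0.06. The split into lower and higher depends on the normalizer. A median Ct per sample in place of the spike-in raised every log2 change by 0.20. It took miR-19a, for example, from 0.44 to 0.64, past 1.5-fold higher.

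Genomic clusters differed in how much of them was seen, beside 203 of all 377 assays measured in both exosome samples. All 6 assays of the cluster from miR-17 to miR-92a (median -0.13), all 3 of the cluster from miR-106b to miR-25 (-0.21) and 10 of 11 of the CLCN5 cluster on X (-0.16) were measured, and 0 of these 19 was past 2-fold. In the CLCN5 cluster the values ran from miR-532-3p at -0.64 to miR-502-5p at 0.26. In the miR-450, miR-424 and miR-503 cluster on X, 4 of 7 were measured, from miR-542-5p at -1.04 to miR-450a at 0.58.

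In C19MC, which is normally active in placenta, 8 of 35 assays were measured, 1 was past 2-fold lower and 0 higher (median -0.39). The other 7 ran from miR-518f at -0.65 to miR-519d at 0.91, with miR-518b at Ct 28.46 and 28.98 the most abundant of them. Seen in normoxia only were miR-515-5p at 32.95, miR-521 at 33.15, miR-519e at 33.99 and miR-518e at 34.99. In hypoxia only, miR-520e was seen at 18.98 and miR-519c-3p at 33.98. In DLK1-DIO3, 5 of 44 were measured (median 0.20), from miR-376c, 32.99 and 33.81, to miR-323-3p. Seen in hypoxia only were miR-655 at 31.62, miR-539 at 32.002, miR-376a at 32.94 and miR-411 at 33.97, and in normoxia only miR-495 at 32.99, miR-494 at 33.03 and miR-654-3p at 33.96. The 2 clusters thus had members on both sides of the comparison near the ceiling, and miR-520e of C19MC lay far from it.

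Markers of cell types were read in both samples. All 10 lymphoid assays were measured, with 0 past 2-fold (median -0.25), and their summed level, as log2 relative to the spike-in, was 5.46 in normoxia and 5.18 in hypoxia. miR-150, of mature lymphocytes, had Ct 22.53 and 22.96 (-0.38), and miR-142-3p, of blood cells, 21.95 and 22.41 (-0.40). Of 4 red cell and platelet assays only miR-126 was measured, both miR-486 assays were at 35, and miR-451 had Ct 33.19 in normoxia and 35 in hypoxia. The summed level was 1.29 in normoxia and 1.02 in hypoxia.

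Epithelial assays were measured for 7 of 8, 0 past 2-fold (median 0.04), with summed levels of 0.75 in normoxia and 0.83 in hypoxia. They ran from miR-429 at -0.25 to miR-141 at 0.91. The Ct of miR-200a was 23.95 and 23.63, and that of miR-200b 23.77 and 23.98. Liver assays were measured for 3 of 4 (summed levels -2.62 and -2.67), with miR-122, the defining hepatocyte miRNA, at 35 in both. Muscle assays were measured for 2 of 6 (summed levels -4.79 and -5.0), miR-1 being past 2-fold higher. In normoxia only, miR-133b and miR-499-5p were seen. The muscle median was 0.46 over the 2 measured and -0.51 with the latter 2 at their bounds. Nervous system assays were measured for 7 of 10 (median 0.36), with summed levels of 2.26 in normoxia and 2.22 in hypoxia. Of these, miR-323-3p (log2 change 1.20) and miR-448 (1.95) were past 2-fold higher, and miR-129-5p was seen in hypoxia only. The others were miR-9 at -0.90, miR-128 at -0.33, miR-138 at 0.02, miR-219-5p at 0.36 and miR-124 at 0.55. The lowest Ct of the list was that of miR-138, 20.93 and 20.97. Fibroblast assays were measured for 1 of 5 (summed levels -3.0 and -2.94), with miR-143 seen in hypoxia only. Embryonic ones were measured for 1 of 7, miR-373 (summed levels 1.36 and 1.03), with miR-302c and miR-372 seen in hypoxia only. The part of such cells or of the medium in the results was not tested.

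Detection in the cells differed between the groups. Of the 15 miRNAs past 2-fold in the exosome fraction, 13 (86.7%) stood at 35 in both cell samples, as did 31 of the 34 seen in 1 exosome sample (91.2%). So did 126 of the 140 detected in neither exosome sample (90%), against 37 of the 188 within 2-fold (19.7%). Of the 138 miRNAs detected in all 4 samples, 1 was past 2-fold. Ct moved with this: with a mean exosome Ct of 30 or more, 13 of 36 miRNAs absent from both cell samples were past 2-fold, and 2 of the 7 seen in at least 1 cell sample. The cell products were not pre-amplified, so a cellular Ct of 35 and an exosomal one are different limits.

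Sequence composition was similar across the groups. Median GC content of the mature sequence was 44.0% for the 7 matched higher miRNAs, 47.6% for the 5 lower, 46.7% for the 166 within 2-fold and 46.5% for the 120 detected in neither sample. The motif GGAG, a sequence linked to export in exosomes, was searched in the mature sequence as written, with no other strand. It was present in 0 of the 7 higher, 1 of the 5 lower (miR-516b), 2 of the 17 normoxia-only and 2 of the 14 hypoxia-only miRNAs, against 7.29% of all 329. The motif CCCU was present in 0 of the 7, 0 of the 5, 4 of the 17 and 1 of the 14, against 13.1% of all. These counts are too small to set the groups apart.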

How the data were processed

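Per the labels' protocols, RNA was reverse transcribed with Megaplex Human Pools A version 2.1 primers, the exosome products were pre-amplified, and TaqMan array cards were read by quantitative PCR. The authors deposited the Ct of each well, not normalized, and the ratio (fold) of hypoxia over normoxia. Per the series' design text the exosome ratio is relative to the ath-miR159 spike-in, from Data Assist version 3.1. No source used here states a genome build or the Ct settings. The spike-in Ct was 22.94 in normoxia and 22.99 in hypoxia.

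The log2 change was the negative difference in Ct after subtracting the spike-in Ct. It differed from log2 of the deposited ratio by at most 0.000356. Detected means a Ct under 35, and a miRNA counts as higher or lower past 2-fold when detected in both samples. A single Ct has no counting error to interval, and the number of samples, 1 per group, limits precision. Cell values used the mean of the 4 U6 wells. The members, lists and the rule for named miRNAs (controls, the 20 lowest mean Ct, all past 2-fold, those seen in 1 sample under Ct 32, arms, seed families and list members) were chosen with earlier results of these data known. Replicate cultures are not described in the labels. The calculation was tested on simulated data. Python 3.11.15, pandas 2.3.3 and numpy 2.4.6 were used.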

Additional observations from a re-analysis of the deposited data

Results flagged for a closer look

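The oxygen response had opposite signs in the exosome fraction and the cells for 3 of the miRNAs past 2-fold or seen in 1 exosome sample. With 1 sample per group the difference between the responses was not tested. miR-323-3p had a log2 change of 1.20 in the exosome fraction and -0.73 in cells, at Ct 34.27 and 34.99 in cells. miR-494 had a bound of -1.92 in the exosome fraction (Ct 33.03 in normoxia, 35 in hypoxia) and 0.91 in cells. miR-520e had a bound of 16.07 in the exosome fraction and -1.21 in cells. miR-489 had -2.34 in the exosome fraction, and its computed value of 0.02 in cells has no readable sign, since its cell wells stood at 35 and 34.97.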

How the results depend on the processing

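The counts of 8 higher and 7 lower miRNAs were 10 and 6 when normalized to the median Ct of each sample, 7 and 7 with no normalizer, 7 and 6 at 1.9-fold per cycle, 6 and 5 without wells near a whole cycle in both samples, and 8 and 7 from the authors' deposited ratios. Detection changed them more: 8 and 4 with Ct under 34 in both samples, 2 and 0 with Ct under 32, and 22 and 18 with wells at the ceiling taken as measured. They were 15 and 20 at 1.5-fold and 2 and 5 at 3-fold. Of the 15 calls, 14 kept with the median normalizer (not miR-542-5p), 14 with none (not miR-1) and 13 at 1.9-fold per cycle (neither of them). The 18 and 16 miRNAs seen in 1 sample were 4 and 6 with Ct under 32. The median log2 change of -0.07 became 0.13 with the median normalizer, which moved every log2 change by 0.20. Signs of small changes thus depend on the normalizer. The median Ct of all detected miRNAs was 26.96 in normoxia and 26.97 in hypoxia. That median does not give this shift, and the wells behind the normalizer's median are not specified here. Of the lists, 8 had a median above 0, against 17 with the median normalizer and 5 with none. No paired analysis was possible because each group has 1 sample and no result comes from a test.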
